A study of Homo sapiens with 12 samples.

Results

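The MEF2 transcription factors MEF2A, MEF2C and MEF2D and the class IIa histone deacetylases HDAC4, HDAC5, HDAC7 and HDAC9 were followed in human induced microglia-like cells (iMGLs). These 7 genes are the rows of a deposited count table of 57992 Ensembl gene IDs whose IDs carry those symbols. Each symbol had 1 ID, and all 7 passed the filter on low counts that left 16022 genes for testing. The cells came from the H1 line of human pluripotent stem cells and are labelled as microglia of the brain, although they were differentiated in culture. Cells given vehicle only, called untreated here, were unedited (WT, 3 libraries) or carried a MEF2C knockout (KO, 3 libraries). Lipopolysaccharide (LPS), a bacterial cell wall component sensed by TLR4, was given to WT cells (WT LPS, 2 libraries) and KO cells (KO LPS, 2 libraries). A further 2 libraries came from KO cells given LPS together with BMS265246 (KO LPS BMS), a compound that the series title ties to inhibition of the kinase CDK2. The sources used here do not give the kind of edit, the number of KO clones, the doses or the times. Differences between KO and WT cells therefore cannot be told apart from differences between clones. No group held the compound without LPS, or in WT cells.

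MEF2 proteins bind A/T-rich DNA sites as dimers and switch genes on when activators are recruited. Class IIa HDACs have little deacetylase activity of their own. They dock on MEF2 through their N-terminal part and bring the NCOR and HDAC3 corepressor complex to it. Kinases of the CAMK, PRKD and SIK families can phosphorylate them, after which 14-3-3 proteins hold them in the cytoplasm and MEF2 is released. HDAC9 is itself a known MEF2 target gene, which forms a negative feedback loop. In microglia, MEF2 sites lie in many active enhancers, and MEF2C is known as a restraint on inflammatory responses.

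RefSeq promoter windows, which run from 250 bases before to 50 bases after an annotated start, were available for 6 of the 7 genes (GRCh38.p14). HDAC5 had none. The windows were searched on both strands for the MEF2 site, spelled CTANNNNTAG. Of 22 member windows 2 held it, 1 of HDAC9 and 1 of MEF2A, against 2.73% of all 35116 windows of the same length. These 2 windows are shown because HDAC9 and MEF2A, with MEF2C itself, were the members called between KO and WT cells. The HDAC9 window is chr7:18086575-18086874 on the + strand, and its match starts 8 bases before the annotated start. The MEF2A window is chr15:99565734-99566033 on the + strand, and its match starts 23 bases before the start. Capitals mark the match, and each sequence is written 5′ to 3′.
HDAC9: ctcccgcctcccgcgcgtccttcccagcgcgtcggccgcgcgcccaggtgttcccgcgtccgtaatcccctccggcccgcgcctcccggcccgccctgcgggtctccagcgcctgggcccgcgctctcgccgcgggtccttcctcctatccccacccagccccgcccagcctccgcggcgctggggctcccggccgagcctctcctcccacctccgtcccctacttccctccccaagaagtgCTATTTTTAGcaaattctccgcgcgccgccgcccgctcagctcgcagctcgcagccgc
MEF2A: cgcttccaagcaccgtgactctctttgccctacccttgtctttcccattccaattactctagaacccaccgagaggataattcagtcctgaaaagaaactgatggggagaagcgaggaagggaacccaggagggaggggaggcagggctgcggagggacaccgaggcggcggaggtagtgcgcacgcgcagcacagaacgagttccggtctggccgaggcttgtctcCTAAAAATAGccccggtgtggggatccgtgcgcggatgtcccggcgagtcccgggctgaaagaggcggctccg
The MEF2 consensus was searched by its name. It is looser at the end bases but takes only A or T in the middle, so neither pattern contains the other. It was found in 3 member windows, these 2 and 1 of MEF2C, against 2.99% of all windows. An NF-kB pattern, GGGNNNNNCC, was in 13 of the 22 windows, against 58.7% of all. HDAC9 and MEF2A have several annotated starts, 5 and 3 windows, and gene counts do not show which start was used. A match is a description of the letters and not evidence of binding.

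Library totals ran from 13888283 to 17639136 reads. The 2 KO LPS libraries differed more than any other replicate pair, with a chi-square per degree of freedom of 11.1 against 2.05 to 6.88. Of the 14 microglial markers, 13 passed the filter, their sum was 6300 to 7290 CPM (read counts scaled by library size and TMM factor), and SALL1 had 0 to 2 counts per library. The sum was uneven: in WT, CSF1R stood at 2110 CPM, TMEM119 at 29.4 and P2RY12 at 15.1. Of the 13, 2 were called higher and 6 lower in KO against WT, beside 10.2% and 11.4% of all genes tested. Markers of muscle, a tissue in which MEF2 genes are active, summed to 2.35 to 3.86 CPM, with DES at 0 throughout. Neuronal markers summed to 2.06 to 8.52 CPM, with NEFL at 0, and lymphocyte markers to 0.967 to 2.07 CPM, with MS4A1 at 0. Erythroid and megakaryocytic markers summed to 20.3 to 38.9 CPM, with HBA2 and HBG1 at 0, and the pluripotency markers to at most 0.618 CPM, with TDGF1 at 0. Endothelial markers summed to 226 to 601 CPM, nearly all of it PECAM1, a gene that myeloid cells also express. Monocyte and border macrophage markers summed to 2210 to 2300 CPM in WT and 3490 to 3560 CPM in KO, to 3080 to 3090 CPM in WT LPS, 4290 to 4450 CPM in KO LPS and 3310 to 3520 CPM in KO LPS BMS. That sum was uneven too: in WT, CD14 stood at 831 CPM, MRC1 at 636 and CD163 at 523. Of its 11 markers, 8 were called higher and 1 lower in KO against WT, beside 10.2% and 11.4% of all genes tested. CCR2 went from 53.5 CPM in WT to 38.8 CPM in KO. The part of these markers in the differences below was not tested. In these bulk samples, fewer cells of a type and less RNA per cell cannot be told apart.

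Levels of different genes are compared per length, as CPM per kb of annotated exon. In WT cells MEF2A stood highest at 20.4 ± 0.797 CPM per kb (SD, n = 3), followed by MEF2C at 15.7 ± 0.669, MEF2D at 11.9 ± 0.803 and HDAC5 at 10.3 ± 0.408. HDAC7 followed at 3.51 ± 0.212, HDAC4 at 1.17 ± 0.111 and HDAC9 at 1.03 ± 0.0688. Only the last pair of neighbours overlapped between libraries. With the longest transcript as the length, MEF2C (24.4) and MEF2A (24.3) were level, and HDAC5 (14.7) stood above MEF2D (12.7), so those ranks rest on the length used. In KO cells MEF2A remained first at 24.3 ± 0.405, and MEF2C (11.3 ± 0.342) and MEF2D (10.9 ± 0.661) overlapped. By the longest transcript they did not, at 17.6 for MEF2C and 11.8 for MEF2D, with HDAC5 at 13.5 between them. With LPS, MEF2C dropped to the fifth place in both genotypes, at 4.22 and 4.39 CPM per kb in WT LPS and 3.91 and 3.98 in KO LPS, a rank that held by either length. HDAC9 was lowest in every group except WT, where it overlapped HDAC4. MEF2B, the remaining family member, had at most 2 counts in any library.

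**Figure D1:**
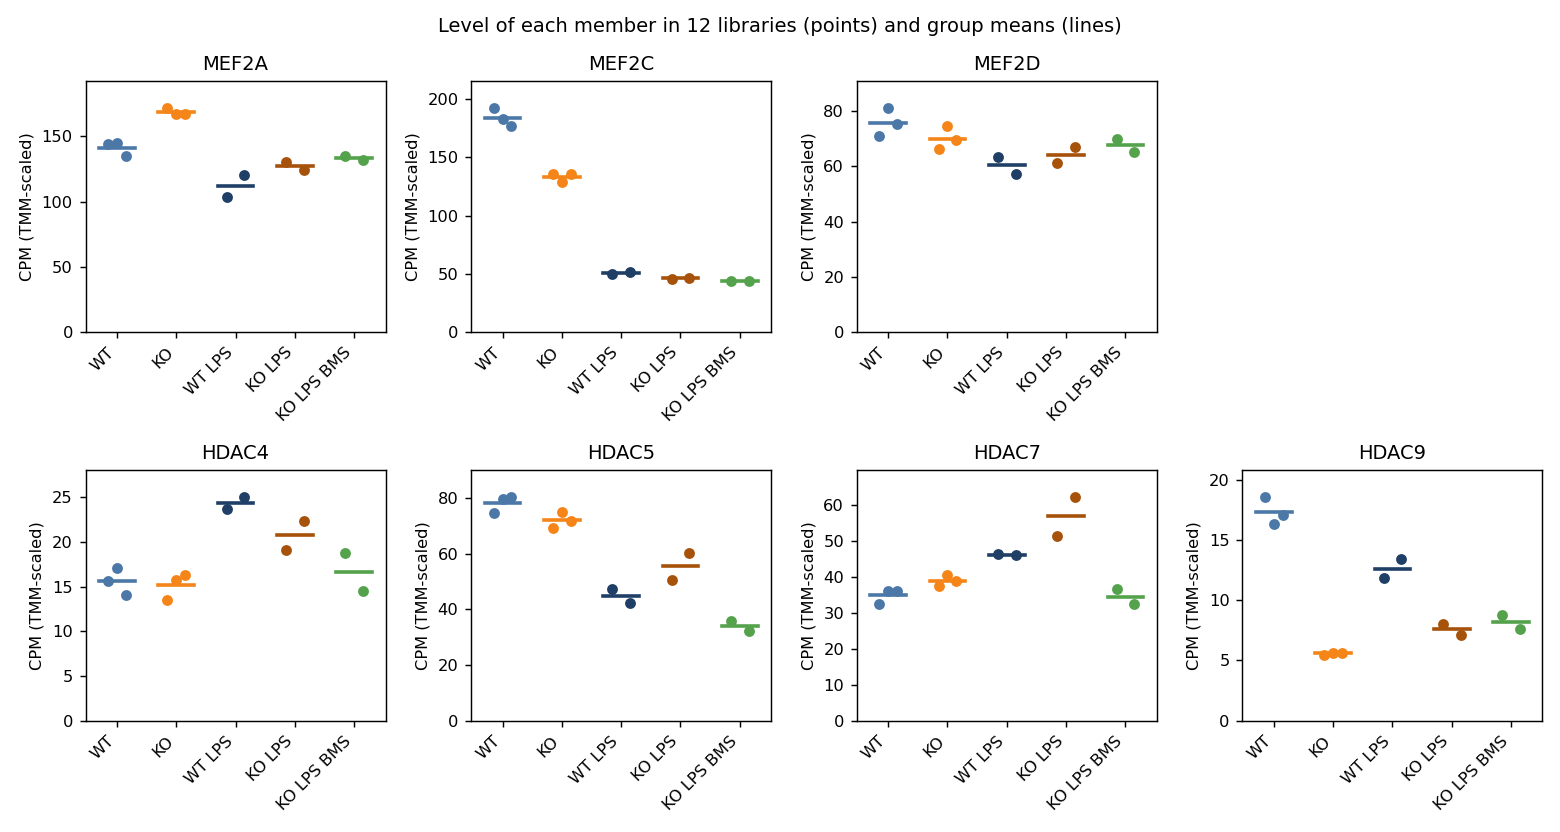
Each panel plots the level of 1 gene (vertical axis, TMM-scaled CPM from 0) in the 5 groups (horizontal axis), with a point per library and a line at the group mean. MEF2C and HDAC5 lie lower in all LPS groups, HDAC4 and HDAC7 lie higher in WT LPS and KO LPS than without LPS, and HDAC9 lies lowest in untreated KO cells, at 5.49 to 5.65 CPM.

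MEF2C (ENSG00000081189) lies on chromosome 5, 88717117 to 88904257 (GRCh38, GENCODE 29), on the minus strand. It was the edited gene, and its transcripts did not disappear from KO cells. They gave 3563, 3563 and 3436 reads in the 3 WT libraries and 2107, 2303 and 2520 in the 3 KO libraries. On the scaled libraries that was 177 to 193 CPM in WT and 129 to 136 CPM in KO, so that the groups did not overlap. The fall was 1.38-fold (log2 fold change -0.47 ± 0.05 SE, adjusted p = 4e-07). Gene counts cannot tell an edited transcript from an unedited one. The antisense gene MEF2C-AS1, which shares 422 bases of exon with it, had 2 to 23 counts per library against 555 to 3563 for MEF2C.

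MEF2C fell far more with LPS than it did in KO against WT. It stood at 49.6 and 51.6 CPM in WT LPS, and at 45.9 and 46.8 CPM in KO LPS, with each LPS library below every untreated one. The fall was 3.64-fold in WT (-1.86 ± 0.06, adjusted p = 9.97e-17) and 2.88-fold in KO (-1.52 ± 0.06, adjusted p = 6.57e-15). The 2 falls differed by 0.34 ± 0.09 on the log2 scale (interaction, adjusted p = 0.0124). Between KO LPS and WT LPS the difference did not pass the test (-0.13 ± 0.07, adjusted p = 0.187, 95% interval -0.27 to 0.01), although the pairs of libraries did not overlap. KO LPS BMS libraries stood at 43.7 and 44.1 CPM, and against KO LPS the change of -0.08 ± 0.07 did not pass (adjusted p = 0.395, 95% interval -0.22 to 0.06).

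MEF2A (ENSG00000068305, chromosome 15, 99565417 to 99716466, plus strand) encodes a broadly expressed MEF2 factor with the same kind of DNA-binding domain as MEF2C. It rose in KO cells, from 144, 145 and 135 CPM in WT to 172, 167 and 167 CPM in KO. No KO library overlapped a WT library, and the rise was 1.19-fold (0.25 ± 0.06, adjusted p = 0.00171). LPS lowered it in both genotypes, to 104 and 120 CPM in WT LPS and to 130 and 124 CPM in KO LPS. These falls were -0.34 ± 0.06 in WT (adjusted p = 9.48e-05) and -0.40 ± 0.06 in KO (adjusted p = 1.67e-05), and their difference did not pass (-0.07 ± 0.09, adjusted p = 0.692). MEF2A remained higher in KO LPS than in WT LPS (0.19 ± 0.07, adjusted p = 0.0457), a call that ended under 6 of the 9 other settings, DESeq2 among them (adjusted p = 0.166). It also ended without any 1 library other than WT LPS replicate 2, and without WT LPS replicate 1 the change was 0.08 (adjusted p = 0.439). With a replicate block the adjusted p was 0.0666. LYSMD4, a coding gene on the other strand, shares 770 bases of exon with MEF2A and had 88 to 169 counts against 1558 to 3109 for MEF2A.

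MEF2D (ENSG00000116604, chromosome 1, 156463727 to 156500828, minus strand) was the steadiest of the 3 MEF2 genes. It stood at 70.9, 81.2 and 75.5 CPM in WT and at 66.2, 74.6 and 69.4 CPM in KO, which overlapped (-0.11 ± 0.07, adjusted p = 0.252). With LPS it stood at 63.3 and 57.3 CPM in WT and 61.2 and 67.0 CPM in KO. The fall passed in WT (-0.33 ± 0.08, adjusted p = 0.000706) and did not pass in KO (-0.13 ± 0.08, adjusted p = 0.177). Whether those changes differed was tested and did not pass (0.20 ± 0.11, adjusted p = 0.241). In KO LPS BMS the level was 70.1 and 65.3 CPM, overlapping KO LPS.

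HDAC9 (ENSG00000048052, chromosome 7, 18086949 to 19002416, plus strand) showed the largest genotype difference of the 7. It stood at 18.6, 16.3 and 17.1 CPM in WT (344, 317 and 332 reads) and at 5.49, 5.65 and 5.64 CPM in KO (85, 101 and 105 reads). No KO library reached the lowest WT library, and the fall was 3.09-fold (-1.63 ± 0.11, adjusted p = 2.45e-10). Of all genes tested, 98.5% changed less in that comparison. The MEF2 match shown above lies in the window of its most upstream start, and its other windows held none. MEF2A, which also has a match, rose in KO cells. Whether these matches bear on the levels was not tested.

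LPS moved HDAC9 in opposite directions in the 2 genotypes. WT LPS libraries held 11.8 and 13.4 CPM, below all WT libraries (-0.46 ± 0.12, adjusted p = 0.00171), and KO LPS libraries held 8.06 and 7.12 CPM, above all KO libraries (0.44 ± 0.14, adjusted p = 0.0133). The difference between the responses was 0.90 ± 0.18 on the log2 scale (interaction, adjusted p = 0.00216), and it was called under all 21 alternative settings. The rise in KO was less firm: it was not called with scaling by library size alone (0.19, adjusted p = 0.27), without a filter on low counts (adjusted p = 0.0505) or without KO LPS replicate 1 (0.31, adjusted p = 0.205). Under LPS, HDAC9 stayed lower in KO than in WT (1.66-fold, -0.73 ± 0.14, adjusted p = 0.000399), a smaller gap than without LPS by the interaction above. KO LPS BMS libraries held 8.75 and 7.60 CPM and overlapped KO LPS (0.10 ± 0.15, adjusted p = 0.617).

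HDAC5 (ENSG00000108840, chromosome 17, 44076746 to 44123702, minus strand) had the highest mean level per length of the 4 class IIa genes in every group. By the longest transcript, HDAC5 still came first but overlapped HDAC7 in KO LPS. It stood at 74.8, 79.7 and 80.6 CPM in WT and 69.2, 74.9 and 71.9 CPM in KO, a difference that did not pass (-0.12 ± 0.07, adjusted p = 0.231). LPS lowered it to 47.2 and 42.3 CPM in WT (-0.81 ± 0.08, adjusted p = 1.22e-08) and to 50.6 and 60.3 CPM in KO (-0.38 ± 0.08, adjusted p = 0.000422). Both falls cleared the untreated libraries, and the one in KO was smaller (interaction 0.43 ± 0.11, adjusted p = 0.0133). That call ended without WT LPS replicate 2 (adjusted p = 0.0809) or KO LPS replicate 2 (adjusted p = 0.124). HDAC5 was higher in KO LPS than in WT LPS (0.31 ± 0.09, adjusted p = 0.0111), and this call ended without the same libraries (adjusted p = 0.133 and 0.243). The compound went with a further fall, to 35.8 and 32.1 CPM (1.64-fold, -0.71 ± 0.09, adjusted p = 1.67e-06), below all other libraries of the study.

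HDAC7 (ENSG00000061273, chromosome 12, 47782722 to 47833132, minus strand), the class IIa HDAC best known from endothelial cells and thymocytes, went the other way with LPS. It stood at 32.4, 36.1 and 35.9 CPM in WT and 37.4, 40.5 and 38.7 CPM in KO. The KO libraries lay above the WT ones, but the difference did not pass (0.16 ± 0.08, adjusted p = 0.155). With LPS it was 46.2 CPM in both WT libraries and 51.2 and 62.2 CPM in KO. LPS raised it in WT (0.41 ± 0.08, adjusted p = 0.000286) and in KO (0.54 ± 0.08, adjusted p = 1.28e-05), and the rise in WT was not called with library size alone (adjusted p = 0.209). KO LPS exceeded WT LPS (0.30 ± 0.09, adjusted p = 0.0182), a call that ended with DESeq2 (adjusted p = 0.0612), without KO LPS replicate 2 (0.15, adjusted p = 0.354) and without either WT LPS replicate. With the compound the level was 36.5 and 32.5 CPM, 1.65-fold below KO LPS (-0.72 ± 0.09, adjusted p = 2.22e-06), which put it against untreated KO cells at -0.18 ± 0.09 (adjusted p = 0.0899). With scaling by library size alone that last difference was called (-0.51, adjusted p = 1.77e-05). SLC48A1 shares 32 bases of exon with HDAC7 on the other strand.

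HDAC4 (ENSG00000068024, chromosome 2, 239048168 to 239401654, minus strand) had 15.7, 17.1 and 14.1 CPM in WT and 13.6, 15.8 and 16.3 CPM in KO, which overlapped (-0.03 ± 0.11, adjusted p = 0.876). LPS raised it to 23.7 and 25.1 CPM in WT (0.64 ± 0.12, adjusted p = 6.6e-05) and to 19.2 and 22.4 CPM in KO (0.44 ± 0.12, adjusted p = 0.00476). The rise in KO was not called with library size alone (adjusted p = 0.186) or without KO LPS replicate 2 (adjusted p = 0.0731). Neither the interaction (-0.20 ± 0.17, adjusted p = 0.492) nor the fall with the compound, to 18.8 and 14.6 CPM (-0.33 ± 0.14, adjusted p = 0.0534), passed. The latter was called without KO LPS replicate 1 (adjusted p = 0.0413) and without KO LPS BMS replicate 1 (-0.51, adjusted p = 0.0134), and also with library size alone (-0.41, adjusted p = 0.0138).

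**Figure D2:**
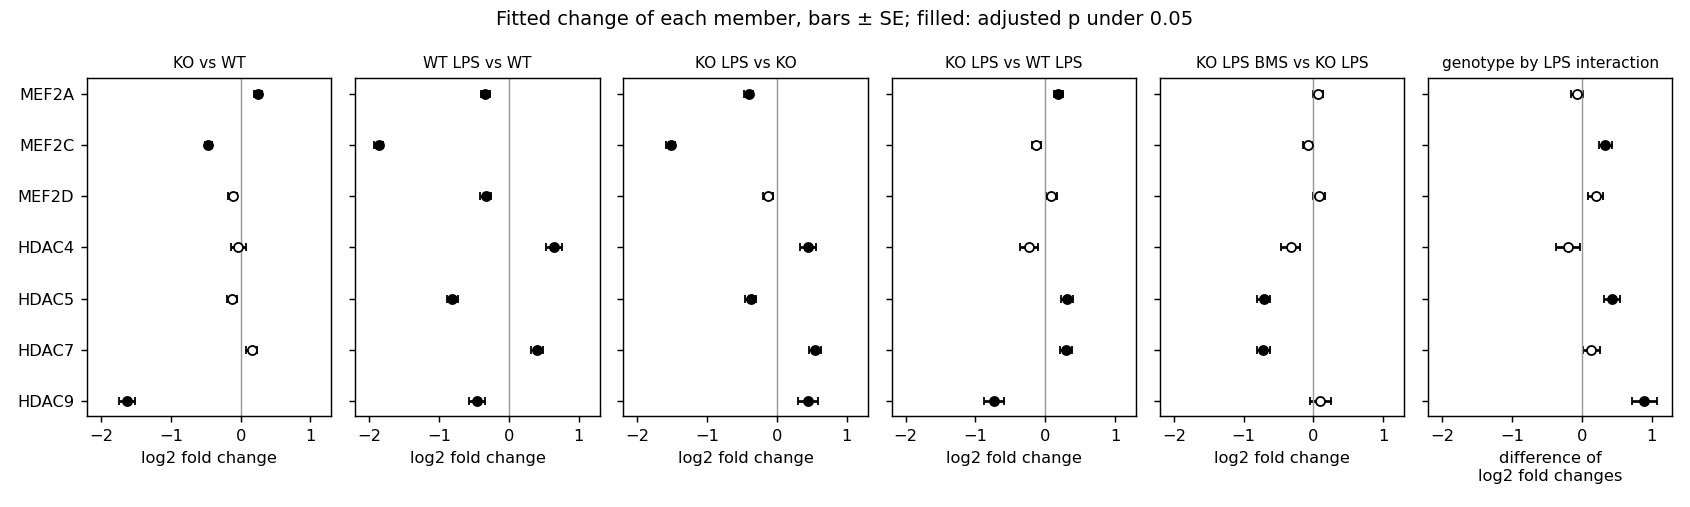
Each panel plots, for 1 comparison, the fitted log2 fold change (horizontal axis, bars ± SE) of the 7 genes (vertical axis), with filled points at an adjusted p under 0.05, and the last panel plots the difference between the LPS changes of KO and WT. HDAC9 at -1.63 is the largest change between KO and WT, MEF2C leads the falls with LPS, and with the compound HDAC5 and HDAC7 are the filled points.

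Counted by comparison, 3 of the 7 genes were called between KO and WT, 1 higher (MEF2A) and 2 lower (MEF2C and HDAC9), beside 21.6% of all genes tested (10.2% higher and 11.4% lower). In WT cells LPS changed all 7, 2 higher (HDAC4 and HDAC7) and 5 lower, beside 59.7% of all genes (28.9% higher and 30.8% lower). In KO cells it changed 6, 3 higher (HDAC4, HDAC7 and HDAC9) and 3 lower (MEF2A, MEF2C and HDAC5), beside 44.8% (24.5% higher and 20.3% lower). Between KO LPS and WT LPS 4 were called, 3 higher (MEF2A, HDAC5 and HDAC7) and 1 lower (HDAC9), beside 30.6% (15.6% higher and 15% lower). The interaction was called for MEF2C, HDAC5 and HDAC9, all with a more positive LPS change in KO, beside 12% (6.42% and 5.57% in the 2 directions). The compound lowered 2 of the 7 and raised 0 by edgeR, a share below the background of 47.8% (22.3% higher and 25.5% lower). At an unadjusted edgeR p under 0.05, 0 were higher and 3 lower, HDAC4 being the third. The share of all genes at that threshold is at least the 47.8% of the adjusted one, so these counts show no excess. DESeq2 called 2. Against untreated KO cells, KO LPS BMS had 4 called, 1 higher (HDAC9, 0.54 ± 0.14) and 3 lower (MEF2A, MEF2C and HDAC5), beside 62.7% (30.3% higher and 32.4% lower). The median log2 fold change of the 7 was -0.11, -0.34 and -0.13 for KO against WT, WT LPS against WT and KO LPS against KO, where all genes tested had medians of -0.02, -0.07 and -0.00. WT LPS and KO LPS each serve in several of these comparisons, so those are not independent.

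Scaling by library size alone moved the median change of all genes by -0.29 for WT LPS against WT, -0.25 for KO LPS against KO and -0.34 for KO LPS BMS against KO. The share of calls that were higher went from 48.4% to 26.7%, from 54.7% to 25.5% and from 48.4% to 26.1% in these comparisons, and from 53.5% to 65.3% for the interaction. Under this scaling the falls of MEF2A, MEF2C and HDAC5 with LPS kept their direction and their calls. MEF2D was also called lower in KO LPS (-0.38, adjusted p = 0.000171) and in KO LPS BMS (-0.39, adjusted p = 9.1e-05) than in KO, and the smaller rises named above were lost.

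Summed per kb of annotated exon, MEF2A, MEF2C and MEF2D gave 46.3 to 49.2 CPM per kb in WT and 46.5 to 46.7 in KO. By this length the sums overlapped while their makeup differed. MEF2C took 31.7% to 33.9% of the sum in WT and 23.4% to 24.8% in KO, and MEF2A took 42.1% to 43.2% and 51.6% to 53.1%. With LPS the sum was lower, at 29.1 to 30.7 CPM per kb in WT LPS and 32.3 to 32.4 in KO LPS, and MEF2C took 14.3% to 14.5% and 12.1% to 12.3% of it. The 4 class IIa HDACs summed to 15.4 to 16.3 CPM per kb in WT, 14.2 to 15.4 in KO, 12.9 to 13.3 in WT LPS and 13.7 to 16.3 in KO LPS. KO LPS BMS had 9.03 to 10.3, below every other library. HDAC5 took 63.9% to 65.0% of the class in WT and 43.1% to 46.5% in WT LPS, while HDAC7 went from 21.2% to 22.2% there to 34.9% to 36.1%. The ratio of the MEF2 sum to the HDAC sum was 3.00 ± 0.149 in WT, 3.15 ± 0.134 in KO (n = 3 each), 2.28 ± 0.143 in WT LPS, 2.17 ± 0.259 in KO LPS and 3.49 ± 0.245 in KO LPS BMS (n = 2 each). The overlap of the MEF2 sums of WT and KO rests on the length used. By the longest transcript the KO sums lay below all WT sums. There MEF2A had means of 24.27 in WT and 28.95 in KO, MEF2C 24.37 and 17.64, and MEF2D 12.72 and 11.75. These sums and shares are descriptions of transcript levels and were not tested.

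**Figure D3:**
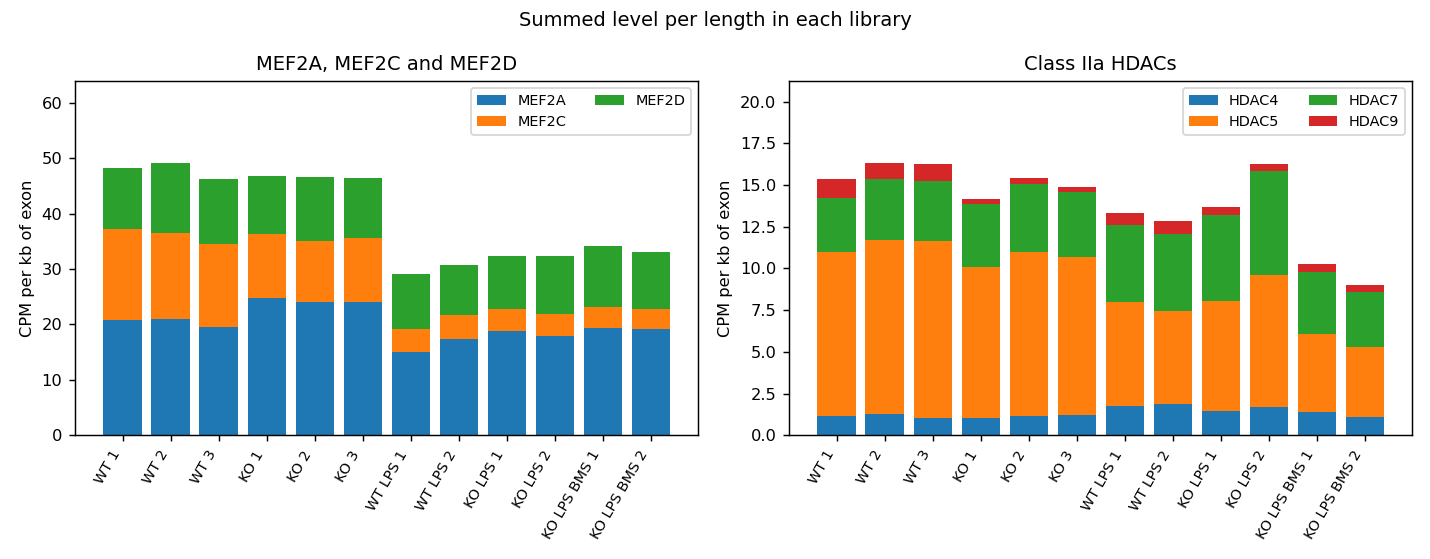
Stacked bars give, for each of the 12 libraries (horizontal axis), the summed level in CPM per kb of exon (vertical axis from 0) of the 3 MEF2 genes on the left and the 4 class IIa HDACs on the right, with colours for the genes. The MEF2 bars drop with LPS mostly through MEF2C in WT, and through both MEF2C and MEF2A in KO. The HDAC bars are shortest in the 2 KO LPS BMS libraries, at 9.03 to 10.3 CPM per kb.

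The partners of these genes were read from 5 lists, whose share of calls is to be read against the percentages of all genes given above. Among other HDACs and their corepressors, 0 of 12 were called higher and 3 lower in KO against WT, with a median of -0.13. HDAC3, the enzyme of the complex that class IIa HDACs recruit, fell from 108 ± 2.46 to 87.9 ± 2.13 CPM (-0.30 ± 0.05, adjusted p = 0.000192). In WT cells LPS raised 4 of the 12 and lowered 3, among them HDAC2 (0.69 ± 0.06, adjusted p = 1.6e-09) and HDAC3 (-0.56 ± 0.06, adjusted p = 6.66e-08). With the compound 5 of the 12 fell and 0 rose (median -0.18), HDAC8 by -0.87 ± 0.14 (adjusted p = 2.97e-05) and HDAC1 by -0.35 ± 0.08 (adjusted p = 0.00127).

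Of 15 tested kinases and phosphatase subunits that act on class IIa HDACs, 2 were higher and 2 lower in KO against WT. LPS raised 5 and lowered 5 in WT, and raised 6 and lowered 3 in KO. SIK3, a kinase that promotes their export from the nucleus, rose from 59.6 ± 1.19 to 121 ± 5.93 CPM in WT (1.02 ± 0.06, adjusted p = 9.16e-13). CAMK2G, a calcium-dependent kinase, fell by 1.25 ± 0.10 there (adjusted p = 2.05e-10). With the compound 8 rose and 1 fell (median 0.24, against -0.04 for all genes). SIK3 went from 117 ± 3.74 to 201 ± 2.68 CPM (0.78 ± 0.06, adjusted p = 1.82e-09), and CAMK4, the calcium-dependent kinase of neurons and lymphocytes, from 1.42 ± 0.363 to 12.6 ± 1.97 CPM (adjusted p = 1.39e-07). The change of SIK3 was in the other direction to those of HDAC5 and HDAC7 in the same libraries. With LPS, SIK3 rose in WT and in KO (1.15 ± 0.06 in KO), as HDAC4 and HDAC7 did, while HDAC5 fell. A link between these transcript levels was not tested.

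The 14-3-3 genes, whose products hold phosphorylated class IIa HDACs in the cytoplasm, changed with LPS in all 6 tested members, 5 higher and 1 lower in either genotype (median 0.71 in WT and 0.38 in KO). YWHAG rose from 254 ± 4.89 to 887 ± 10.3 CPM in WT (1.80 ± 0.05, adjusted p = 7.01e-19), and YWHAH fell (-1.18 ± 0.05, adjusted p = 2.92e-14). In KO the rise of YWHAG was smaller (1.39 ± 0.05, interaction -0.41 ± 0.07, adjusted p = 0.000252). The interaction was called for 4 of the 6, all with a smaller or more negative LPS change in KO, and 5 of 6 were lower in KO LPS than in WT LPS (median -0.25). YWHAZ was the first of these by adjusted p (-0.40, adjusted p = 2.91e-05), followed by YWHAE (-0.38, adjusted p = 3e-05). Between KO and WT without LPS 1 of 6 was called, YWHAG (0.15 ± 0.04, adjusted p = 0.0131).

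Among 16 genes of MEF2 activation (p38 and ERK5 pathway kinases, calcineurin, NFAT partners and coactivators, with CABIN1 as a repressor among them), 1 was higher and 2 lower in KO against WT. MAPK7, which encodes ERK5, was the higher one (0.51 ± 0.12, adjusted p = 0.00422). LPS raised 8 and lowered 7 in WT, where MAP2K6, a kinase upstream of p38, fell from 8.54 ± 0.715 to 0.874 ± 0.174 CPM (-3.28 ± 0.22, adjusted p = 1.3e-11). With the compound 1 rose and 8 fell (median -0.28), among them the acetyltransferase EP300 (-0.54 ± 0.07, adjusted p = 2.37e-06) and CABIN1 (-0.64 ± 0.09, adjusted p = 2.43e-06).

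Of 13 tested genes that textbooks list as MEF2 targets, HDAC9 included, 5 were higher and 4 lower in KO against WT, with a median of 0.35. That median is the value of SLC2A4 (0.35 ± 0.89, adjusted p = 0.841), which had only 0.103 CPM in WT and 0.138 CPM in KO. NR4A1, an orphan nuclear receptor gene, went from 22.3 ± 1.49 to 6.69 ± 0.251 CPM (-1.74 ± 0.11, adjusted p = 3.68e-11), and KLF4 from 5.29 ± 1.14 to 15 ± 2.28 CPM (1.51 ± 0.15, adjusted p = 1.47e-07). LPS raised 7 of the 13 and lowered 5 in WT, and raised 7 and lowered 1 in KO. KLF6 (1.68, adjusted p = 2.62e-18) and the endothelin receptor gene EDNRA (3.22, adjusted p = 9.05e-18) had the lowest adjusted p among the rises in WT. Like HDAC9, NR4A1 changed with LPS in opposite directions, with a fall in WT (-1.09 ± 0.12, adjusted p = 3.37e-08), a rise in KO (0.48 ± 0.13, adjusted p = 0.00496) and an interaction of 1.57 ± 0.18 (adjusted p = 3.27e-06). KLF4 had an interaction of the other sign (-1.40 ± 0.22, adjusted p = 0.000268), since LPS raised it in WT (1.53 ± 0.16, adjusted p = 7.46e-08) and the change in KO did not pass (0.13 ± 0.15, adjusted p = 0.508). With the compound NR4A1 fell (-1.72 ± 0.17, adjusted p = 4.6e-08), where HDAC9 did not pass, and 2 of the 13 rose and 3 fell.

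For each of the 7 genes, the 3 genes with the most similar profile were taken by Pearson correlation of log2 CPM over the 12 libraries, among 10573 genes with a symbol and a mean of at least 5 CPM. The libraries share groups, so these values describe group patterns and carry no test. MEF2C was closest to CD1D (r = 0.995), ZHX3 (r = 0.993) and SLC39A10 (r = 0.992). CD1D had 123 CPM in WT, 92.4 in KO and 13.5 to 18.3 in the LPS groups. HDAC5 was closest to STK11IP (r = 0.994), CABIN1 (r = 0.992) and B4GALT7 (r = 0.992), and CABIN1 encodes a repressor that binds both calcineurin and MEF2. HDAC9 was closest to CDCA8 (r = 0.958), the MHC class II gene HLA-DOA (r = 0.955), which went from 65.3 CPM in WT to 11.4 in KO, and BMF (r = 0.950). For the other 4 genes the 3 closest ran from r = 0.936 (HARS1 with HDAC4) to r = 0.968 (FLOT2 with HDAC7). Within the 7, MEF2C and HDAC5 were the most alike (r = 0.880), and MEF2A and HDAC4 the most opposed (r = -0.747).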

How the data were processed

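Read counts by Ensembl gene ID, whole and not normalized, came in the single table that the authors deposited, with a column for each library. Per the labels' protocols, TRIzol was used for RNA extraction and a NEBNext Ultra kit for library preparation. The submitters' processing notes name CASAVA 1.7, Cufflinks and GRCh38. Which aligner, counter, strand setting and annotation were used is not stated in those sources, so reads of overlapping antisense genes may be mixed. Titles call the replicates biological, without saying whether differentiations were separate, so p-values measure the spread between these samples, which may be technical.

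Symbols came from a table of gene names (56948 IDs) and GENCODE 29 (440 more). A single edgeR 4.0.16 model (R 4.3.3, robust) held the 5 group means over the 12 libraries, after filterByExpr (16022 genes kept) and TMM scaling (factors 0.872 to 1.117). Its quasi-likelihood F test, 2-sided, was adjusted by Benjamini-Hochberg over all genes of each of 7 comparisons, with calls at an adjusted p under 0.05. The SE is the log2 fold change divided by the root of F, and 95% intervals span 1.96 SE on each side. Groups of 2 borrow their spread from the whole fit. The fit was also run on simulated counts in which few genes changed, so that run does not test the scaling. A count of 0 allows up to 3 counts, or 0.154 to 0.236 CPM, for counting error only.

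All 7 genes are named in every comparison. From each related list, part of the called genes with the 2 lowest adjusted p in each direction of a comparison are named. The 7 genes and the lists were chosen with earlier results of these data known. Same-numbered replicates were not treated as paired. The correlation of deviations from group means was -0.143 to 0.103 over 21 same-numbered pairs and -0.103 to 0.143 over 36 others. In groups of 2 libraries the deviations mirror each other, so these pairs are not independent and cannot settle whether replicates were paired. Alternatives were DESeq2 1.42.0, limma-voom (limma 3.58.1), other scalings and filters, a non-robust fit, fits of only the groups compared, a replicate block and leaving out each library.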

Additional observations from a re-analysis of the deposited data

Results flagged for a closer look

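By the interaction term of edgeR's quasi-likelihood test, the LPS change was called different between KO and WT cells for 3 of the 7 genes. Of all genes tested, 12% were called. HDAC9 differed by 0.898 on the log2 scale (SE 0.181, adjusted p = 0.00216), with all WT LPS libraries below WT and all KO LPS libraries above KO. The rise of HDAC9 in KO was not called by edgeR with library size alone (0.188, adjusted p = 0.27). Without KO LPS replicate 1 it was 0.31. HDAC5 differed by 0.431 (SE 0.112, adjusted p = 0.0133), with a fall in both genotypes. Its difference was 0.356 without WT LPS replicate 2 and 0.302 without KO LPS replicate 2, where the call ended. MEF2C, the edited gene, differed by 0.34 (SE 0.087, adjusted p = 0.0124), again with a fall in both genotypes.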

How the results depend on the processing

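Of the 7 comparisons, the one between KO LPS and WT LPS depended most on the processing. Its 4 calls among the 7 genes became 2 with DESeq2 and 1 with only the 2 groups in the fit, and 1 to 3 when a library was left out. The count over all genes went from 4900 to 2660 with only those groups and to between 3005 and 5549 without a library. For the interaction it went from 1920 to between 1162 and 3079, while 2 to 3 of the 7 genes were called. The cause was not tested. With the replicate block 3 of the 7 were called between KO LPS and WT LPS, where MEF2A was lost, and it changed no other call of the 7 genes. KO against WT had 3091 calls over all genes with the block. A few small changes that were not called turned their sign. With library size alone, against KO LPS, KO LPS BMS had -0.019 for MEF2A and -0.006 for MEF2D, and against KO -0.219 for HDAC4. Without single libraries, the log2 fold change between KO and WT ran from -0.103 to 0.04 for HDAC4 (0.036 without WT replicate 2), the interaction from -0.165 to 0.049 for MEF2A and from -0.007 to 0.242 for HDAC7, and the change with the compound from -0.001 to 0.234 for HDAC9. Against untreated KO, KO LPS BMS ran from -0.066 to 0.302 for HDAC4 and from -0.1 to 0.004 for MEF2D. HDAC7 was called between KO and WT with only those groups in the fit (0.18, adjusted p = 0.0322), and higher HDAC9 in KO LPS BMS than in KO was not called with library size alone (0.203, adjusted p = 0.205). With 2 libraries in each LPS group, 1 library can decide a small change.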
